A study of Homo sapiens with 16 samples.

Results

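The genes described here mostly encode proteins of the mitochondrial ribosome and nuclear-encoded subunits of respiratory complex I. They were taken as all GENCODE protein-coding genes whose symbol starts with MRPL, MRPS or NDUF. This rule also takes in complex I assembly factors and a few other genes, and misses proteins of the mitochondrial ribosome with other symbols. It gave 126 genes among 20046 protein-coding genes, comprising 49 MRPL, 29 MRPS and 48 NDUF genes. Acetylation of histone H3 at lysine 27 (H3K27ac), a mark of active promoters and enhancers, was measured by chromatin immunoprecipitation and sequencing in the established cell line LX-2, which derives from human hepatic stellate cells, the collagen-producing cells of the liver, and is of myofibroblastic type. Cells received the vehicle DMSO or 50 µM OSMI-1 for 24 h, with 4 biological replicates in each arm, all from this 1 cell line grown in serum-containing medium. OSMI-1, called OGTi hereafter, is an inhibitor of OGT (O-GlcNAc transferase), which attaches N-acetylglucosamine to nuclear and cytoplasmic proteins. The measurements are 2 lists of genomic regions derived from all 8 H3K27ac libraries, 3507 that lost H3K27ac under OGTi (lost regions) and 3623 that gained it (gained regions). The lists give positions only, so a gene is described by the listed regions within 2500 bp of its 5′ end, and no value per library, fold change or p-value of a gene can be given.

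The mitochondrial ribosome (mitoribosome) translates the few proteins encoded in mitochondrial DNA, all of them parts of the respiratory chain and of ATP synthase. Its RNAs come from mitochondrial DNA, whereas all of its proteins are encoded in the nucleus, translated in the cytosol and imported. Complex I oxidises NADH and pumps protons, and is built from core subunits shared with bacteria and from accessory subunits with the help of assembly factors, some encoded in mitochondrial DNA (the MT-ND genes) and the rest in the nucleus (NDUF genes). Promoters of such genes are known to be rich in CpG and often to carry sites for the transcription factors NRF1, GABP (an ETS family member) and YY1.

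Of the 126 genes, 20 had a gained region near the 5′ end and 0 had a lost one. To show what DNA lay at these promoters, 6 of the 20 are printed below, namely those whose gained region contained the 5′ end and whose promoter held the most different motifs of the 9 searched, with ties taken in alphabetical order. MRPS30 and MRPS5, which held 2 motifs like the last 4 printed, fell out by this order. Each sequence runs 5′ to 3′ on the strand of the gene, from 250 bases before its 5′ end to the end of the first 50 bases of the gene, read from hg38. Capitals mark exact matches on either strand to the consensus of NRF1 (GCATGCGC), ETS (CCGGAAG), YY1 (AAGATGGC), SP/KLF (GGGCGGGG), NFY (AGCCAAT), CRE (TGACGTCA), ATF4-C/EBP (TGATGCAA), the E-box (CACGTG) and TEAD (CATTCC). MRPL22 lies at chr5:154940823-154941122 on the plus strand, NDUFAF8 at chr17:81239055-81239354 on the plus strand, MRPL20 at chr1:1407244-1407543 on the minus strand, MRPL43 at chr10:100987466-100987765 on the minus strand, MRPS14 at chr1:175023376-175023675 on the minus strand and MRPS18B at chr6:30617590-30617889 on the plus strand.
MRPL22: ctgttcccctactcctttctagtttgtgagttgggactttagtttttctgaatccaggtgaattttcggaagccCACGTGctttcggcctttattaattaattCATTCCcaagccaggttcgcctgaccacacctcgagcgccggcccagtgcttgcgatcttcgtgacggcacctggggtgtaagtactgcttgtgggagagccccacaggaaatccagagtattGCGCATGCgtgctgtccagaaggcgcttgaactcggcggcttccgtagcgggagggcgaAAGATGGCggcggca
NDUFAF8: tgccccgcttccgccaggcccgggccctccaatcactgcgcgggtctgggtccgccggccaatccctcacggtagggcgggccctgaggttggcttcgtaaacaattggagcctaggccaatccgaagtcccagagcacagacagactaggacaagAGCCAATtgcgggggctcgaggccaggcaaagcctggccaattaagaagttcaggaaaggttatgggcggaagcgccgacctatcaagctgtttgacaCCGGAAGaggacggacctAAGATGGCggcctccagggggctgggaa
MRPL20: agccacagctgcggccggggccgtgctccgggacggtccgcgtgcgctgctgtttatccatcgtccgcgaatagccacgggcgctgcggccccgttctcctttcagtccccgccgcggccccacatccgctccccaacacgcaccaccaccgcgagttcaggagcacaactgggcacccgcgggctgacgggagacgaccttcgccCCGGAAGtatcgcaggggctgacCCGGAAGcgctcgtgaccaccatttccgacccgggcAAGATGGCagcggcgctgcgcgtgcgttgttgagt
MRPL43: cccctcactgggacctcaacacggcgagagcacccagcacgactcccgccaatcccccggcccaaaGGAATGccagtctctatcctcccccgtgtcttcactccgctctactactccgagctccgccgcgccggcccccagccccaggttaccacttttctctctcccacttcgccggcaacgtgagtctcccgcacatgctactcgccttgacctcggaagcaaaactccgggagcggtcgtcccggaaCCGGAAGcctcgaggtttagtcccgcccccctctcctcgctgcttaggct
MRPS14: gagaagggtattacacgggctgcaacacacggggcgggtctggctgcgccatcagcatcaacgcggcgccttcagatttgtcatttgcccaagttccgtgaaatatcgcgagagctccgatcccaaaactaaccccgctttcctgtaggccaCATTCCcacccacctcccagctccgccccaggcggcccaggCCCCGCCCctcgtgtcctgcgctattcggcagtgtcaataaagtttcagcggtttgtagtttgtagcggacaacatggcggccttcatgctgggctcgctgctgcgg
MRPS18B: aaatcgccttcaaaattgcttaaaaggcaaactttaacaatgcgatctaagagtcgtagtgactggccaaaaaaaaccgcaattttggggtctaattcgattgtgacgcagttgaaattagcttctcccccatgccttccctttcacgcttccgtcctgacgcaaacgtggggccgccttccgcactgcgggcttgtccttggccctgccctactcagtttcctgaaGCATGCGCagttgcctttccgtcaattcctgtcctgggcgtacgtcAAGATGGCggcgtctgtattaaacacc

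In MRPL22 the capitals are, in order, an E-box, a TEAD, an NRF1 (on the opposite strand) and a YY1 match, which makes 4 different motifs. NDUFAF8 held an NFY, an ETS and a YY1 match, and MRPL20 held 2 ETS matches followed by a YY1 match. The TEAD match of MRPL43 was on the opposite strand, and its ETS match began at the 5′ end itself. MRPS14 held a TEAD match and an SP/KLF match on the opposite strand, and MRPS18B an NRF1 and a YY1 match. A match is a description of the letters and not evidence that a factor bound there.

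The split of the MRPL, MRPS and NDUF genes was compared with that of other protein-coding genes, which asks whether H3K27ac moved in one direction at these promoters under OGTi. Near gained regions lay 20 of the 126 genes, or 15.9% (95% Wilson interval 10.5 to 23.2). Over all protein-coding genes this share was 6.39%. Near lost regions lay 0 of the 126, which allows a share of up to 2.38% when 3 genes are taken as the limit of a count of 0 (the Wilson upper bound is 2.96%), while the share over all protein-coding genes was 2.02%. The absence of lost regions is therefore within what so few genes can show, whereas the share near gained regions lay above that of other genes. These shares run over all genes, with or without H3K27ac at the promoter, because unchanged regions are not listed. How far the difference follows from having an acetylated promoter at all was not tested. Leaving out every gene whose region is also near another protein-coding gene left 11 of 117 (9.40%), beside 4.16% of other genes. That step takes out only genes near a listed region, so a lower share in both groups follows from the step itself. It cannot tell how far the share near gained regions rests on shared promoters. No gene had both kinds. Intervals and limits here cover counting error only and treat genes as independent, which genes with a common promoter are not. Nor do they cover the choice of these genes, which was made with earlier results of these data known.

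All 20 of the 20 genes near 1 kind of region were near gained ones (100%, interval 83.9 to 100), beside 76.0% of all 1686 protein-coding genes near 1 kind. Among the other 19920 genes, 1261 were near gained regions only (6.33%) and 405 near lost regions only (2.03%), so that 75.7% of these 1666 genes were on the gained side (interval 73.6 to 77.7).

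**Figure D1:**
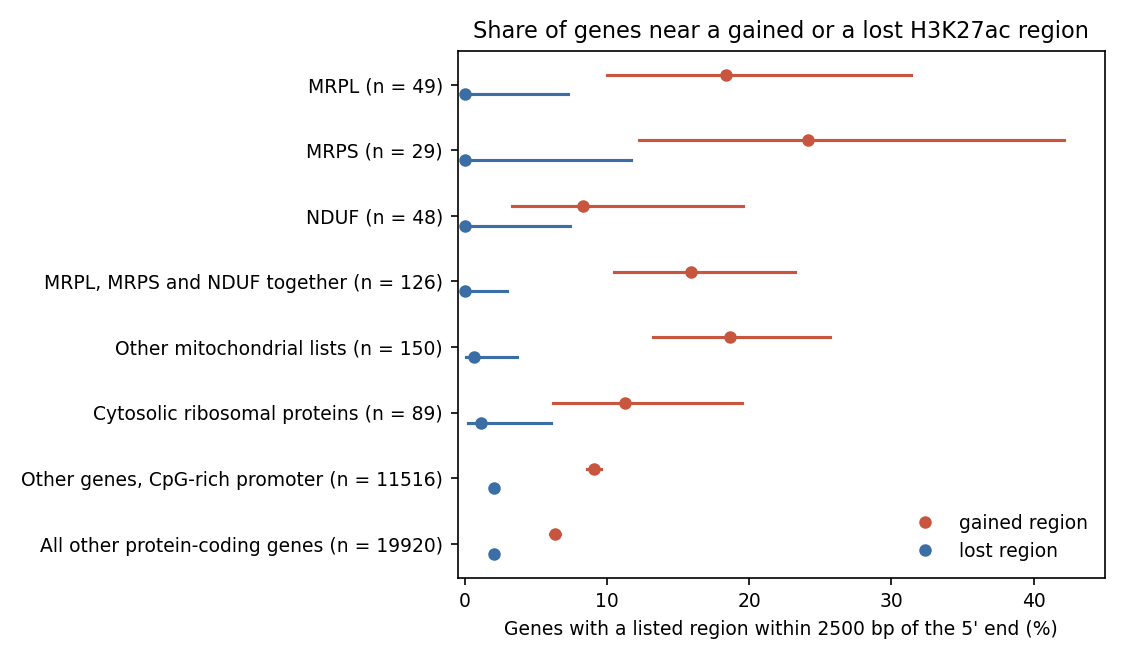
Percentage of genes with a gained (red) or a lost (blue) H3K27ac region within 2500 bp of the 5′ end, by group of genes, with the number of genes in brackets; points are shares and lines are 95% Wilson intervals. The 126 MRPL, MRPS and NDUF genes stood at 15.9% for gained and 0% for lost regions, and all other protein-coding genes at 6.33% and 2.03%.

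The genes divided unequally by complex, although the intervals overlap. Of the 78 mitoribosome genes, 16 were near a gained region (20.5%, interval 13.04 to 30.75), with 9 of the 49 MRPL genes (18.4%) and 7 of the 29 MRPS genes (24.1%). Of the 48 NDUF genes, 4 were (8.33%, interval 3.29 to 19.6), a share near the 6.39% of all genes. The difference between mitoribosome and NDUF genes was not tested. Of complex I itself, 0 of the 7 nuclear core subunits, 2 of the 30 accessory subunits and 1 of the 8 NDUFAF assembly factors were near a gained region, and 0 were near a lost one.

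The MRPL genes near gained regions were MRPL3, MRPL20, MRPL21, MRPL22, MRPL30, MRPL42, MRPL43, MRPL46 and MRPL54. Their products are proteins of the large subunit, where peptide bonds form. Those of MRPL3, MRPL20, MRPL21, MRPL22 and MRPL30 have counterparts in bacterial ribosomes, and those of MRPL42, MRPL43, MRPL46 and MRPL54 are found in mitochondrial ribosomes. The position of each region is given below in the direction of transcription, with 0 at the 5′ end and negative values upstream.

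Centres nearest to the 5′ end were found at MRPL20, MRPL22, MRPL43, MRPS16, MRPS18B and MRPL30, in this order. MRPL20 had its region at chr1:1406790-1407742 (-449 to 503 bp), with the centre at 27 bp and 393 of 953 bp in exons of the gene. At MRPL22 the region was chr5:154940807-154941430 (-266 to 357 bp), with 193 of 624 bp in exons. MRPL43 had chr10:100987083-100987789 (-274 to 432 bp), with 407 of 707 bp in exons. These 3 regions thus lay on both sides of the 5′ end and reached further downstream than upstream. MRPL30 had chr2:99180780-99181788 (-372 to 636 bp), of which 98 of 1009 bp were exonic. MRPL43 and MRPL30 each had a neighbour in the same window, TWNK, which encodes the helicase of mitochondrial DNA, and MITD1, which encodes a protein of the last step of cell division. For such pairs the list cannot tell to which promoter the gain belongs.

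At the remaining MRPL genes the region also lay at the start of the gene. It reached from -886 to 366 bp at MRPL21, from -67 to 543 bp at MRPL42 and from -160 to 779 bp at MRPL54. At MRPL3 it began 15 bp downstream of the 5′ end and reached to 604 bp, so that it did not contain the 5′ end. MRPL21 shared its region with IGHMBP2, which encodes a helicase, and MRPL54 with APBA3, which encodes an adaptor protein.

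The MRPS genes near gained regions were MRPS5, MRPS11, MRPS14, MRPS16, MRPS18B, MRPS28 and MRPS30. The small subunit binds the mRNA and decodes it, and MRPS5, MRPS11, MRPS14 and MRPS16 have bacterial counterparts. MRPS30 was grouped by its symbol, although its protein is part of the large subunit in the human mitoribosome. MRPS16 had its region at chr10:73251800-73253393 (-700 to 893 bp), with the centre at 96.5 bp and 608 of 1594 bp in exons. MRPS18B was the 1 gene with 2 listed regions in the window, chr6:30615183-30617296 (-2657 to -544 bp) and the abutting chr6:30617297-30618643 (-543 to 803 bp), which together form 1 gained stretch. It shared both with PPP1R10, which encodes a nuclear regulator of protein phosphatase.

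Regions of the other small-subunit symbols differed in width more than in place. The region of MRPS14 reached from -43 to 313 bp and was the narrowest at these genes, with 357 bp. At MRPS5 the region reached from -132 to 771 bp, at MRPS28 from -216 to 845 bp and at MRPS30 from -100 to 1320 bp. In all 3 genes most of the region lay inside the gene.

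MRPL46 and MRPS11, which encode a protein of each subunit, shared 1 gained region at chr15:88467018-88468176. They are transcribed in opposite directions, MRPL46 from 88467390 on the minus strand and MRPS11 from 88467453 on the plus strand, so that 1 region of 1159 bp covered both starts. Counted by regions, the 20 genes therefore rested on 20 distinct regions, with MRPS18B adding the one that this pair took away.

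The NDUF genes near gained regions were NDUFS4, NDUFV3, NDUFAF8 and NDUFA4L2. NDUFS4 and NDUFV3 encode accessory subunits at the NADH-oxidising arm of complex I, and loss of NDUFS4 causes Leigh syndrome. The region of NDUFS4 reached from -39 to 498 bp. NDUFAF8 encodes a factor that acts with NDUFAF5 in complex I assembly, and its region reached from -5 to 486 bp and was shared with TEPSIN, a gene of the vesicle coat machinery. NDUFA4L2 is a hypoxia-induced relative of NDUFA4, a subunit of cytochrome c oxidase and not of complex I, so that neither belongs to the complex that the symbol names. Its region reached from 155 to 1370 bp and did not contain the 5′ end. NDUFA4 and the read-through gene NDUFC2-KCTD14 had no listed region in the window.

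NDUFV3 depended on which 5′ end was taken. The gained region reached from -1074 to 485 bp around the GENCODE 5′ end, which is also near WDR4, a gene of tRNA methylation, but the canonical transcript of NDUFV3 and its RefSeq start lie 13665 bp further downstream, with no listed region in the window. MRPS22 was the opposite case, since its GENCODE 5′ end belongs to a long extended transcript. Its canonical start at chr3:139344020 lay inside a gained region, chr3:139343954-139344579, and MRPS22 was not counted among the 20. With canonical starts, an alternative chosen after the data were seen, 21 of the 126 genes were near a gained region and 0 near a lost one. The RefSeq start was found for 17 of the 20 genes and was within 50 bp of the GENCODE 5′ end in 13 of them.

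**Figure D2:**
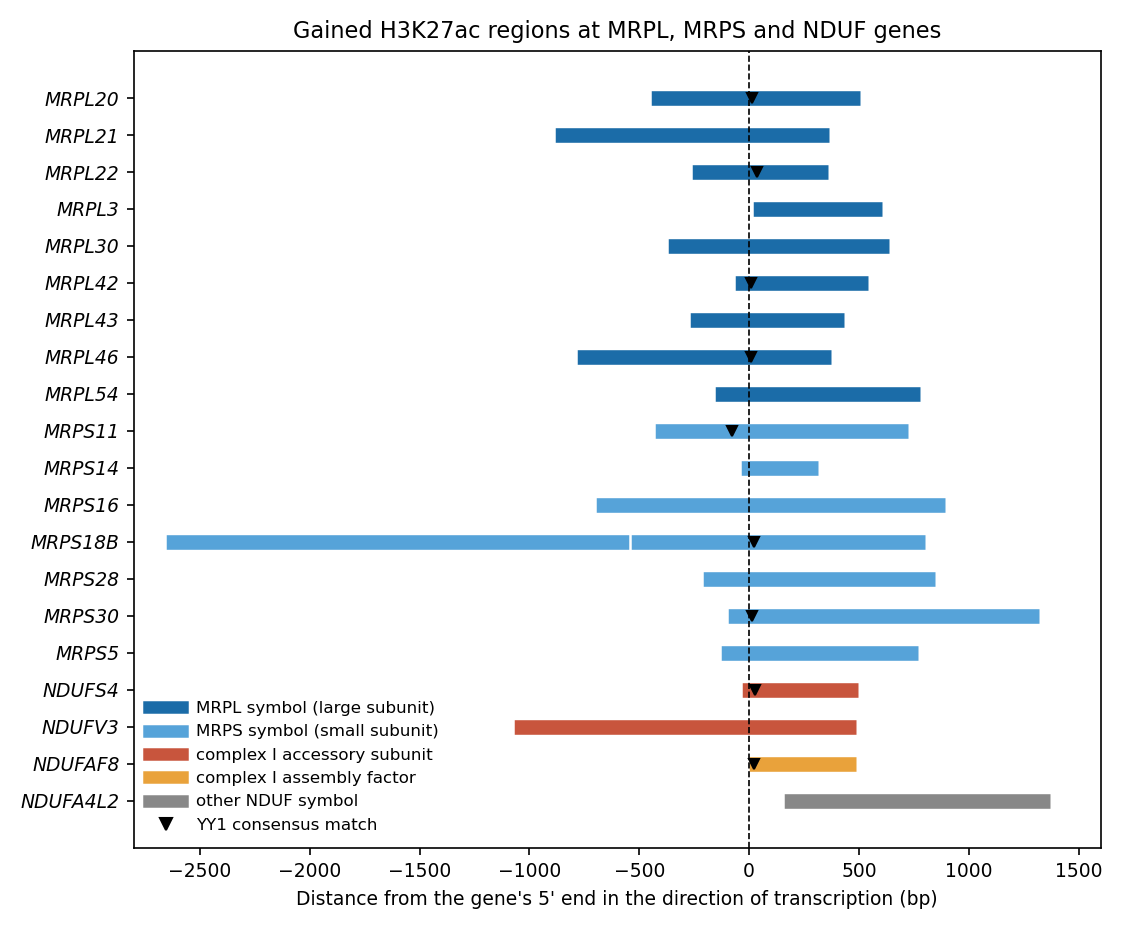
Gained H3K27ac regions within 2500 bp of the 5′ end of the 20 genes, 1 row a gene, with distance from the 5′ end in bp along the direction of transcription on the horizontal axis; bars are regions coloured by the group the symbol gives, white lines mark where a region starts, and black triangles mark exact matches to the YY1 consensus. The regions contained the 5′ end in 18 of 20 genes, and MRPS18B alone had 2 of them.

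The gained regions at these genes were narrow in the median and mostly covered the 5′ end. Their median width was 981 bp (quartiles 620.75 and 1276.5, range 357 to 2114) over 20 regions, whereas that of the 1102 gained regions at other protein-coding genes was 1561.5 bp (quartiles 1088.5 and 2000). Of the 20 genes, 18 (90%, interval 69.9 to 97.2) had a region that contained the 5′ end, beside 991 of 1261 other genes (78.6%). The centre lay downstream of the 5′ end in 17 of 20 genes (85%, interval 64.0 to 94.8), beside 889 of 1261 (70.5%). A second protein-coding gene lay in the window in 9 of 20 (45%, interval 25.8 to 65.8), beside 455 of 1261 (36.1%). With 20 genes, each of these 3 intervals includes the share of other genes. The procedure behind the lists divides wide peaks into bins of about 2000 bp, so a width is that of a bin where the peak was wider.

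Most had no other listed region close by, as did most gained regions at other genes. Of the 20 regions, 16 (80%, interval 58.4 to 91.9) had no other listed region within 50 kb, beside 645 of 1102 (58.5%) at other genes. A lost region within 50 kb was seen at 0 of 20, which allows a share of up to 15%, beside 86 of 1102 (7.80%). At this number of regions a difference from other genes in lost neighbours was not detectable. Those with a gained neighbour were the abutting pair of MRPS18B and the regions of MRPS16 and NDUFA4L2.

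Beyond the promoter the one-sided split became weaker. Within 1 kb of the 5′ end, the 126 genes had gained regions only in 20 cases and lost regions in 0, and within 5 kb in 22 and 0. Within 10 kb there were 25 with gained regions only and 1 with a lost region only. The 5 added genes included MRPL24, MRPS10, NDUFS3 and MRPL17, and the 1 lost region was that of MRPL33, at chr2:27760284-27762327. Within 50 kb the numbers were 36 and 14, or 72.0% on the gained side, beside 63.2% in other genes. Within 100 kb they were 40 and 17, or 70.2%, beside 62.2%. The median distance to the nearest gained region was 139 kb, beside 236 kb in other genes, and that to the nearest lost region 320 kb, beside 360 kb.

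**Figure D3:**
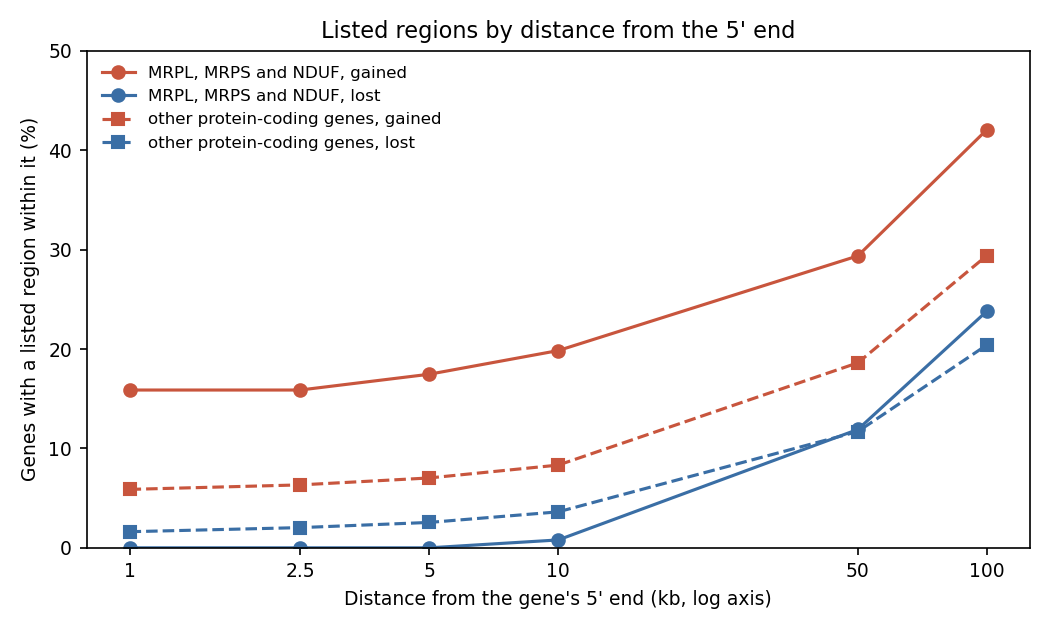
Percentage of genes with a gained (red) or lost (blue) region within a given distance of the 5′ end (horizontal log axis, kb), for the 126 MRPL, MRPS and NDUF genes (solid lines, circles) and the 19920 other protein-coding genes (dashed lines, squares). Lost regions within 10 kb were found for 0.794% of the 126 genes and 3.62% of the others, and at 50 kb both groups were near 12% (11.9% and 11.7%).

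Among the 106 genes without a region in the window, 11 held listed regions further inside the gene, and here both kinds occurred. NDUFC1, an accessory subunit gene, held 2 lost regions, and NDUFA12 and MRPS6 held 1 each, all without exon bases of the gene. MRPS27, NDUFA5, NDUFA9 and NDUFS3 were among those with 1 gained region each, and that of NDUFA5 lay wholly in exon sequence (451 bp). NDUFAF6, an assembly factor gene, held 1 of each kind. MRPL33 (3 lost and 2 gained) and MRPS22 (7 lost and 1 gained) have long, extended gene bodies in GENCODE, and their lost regions held no exon bases. The lost regions thus lay in introns of the genes as GENCODE bounds them. Those of MRPS22 lay upstream of its canonical start.

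Promoters rich in CpG are more often acetylated, so the shares were also taken within that class, defined as a ratio of observed to expected CpG of at least 0.6 and GC of at least 50% in the 1000 bp around the 5′ end. Of the 126 genes, 104 were in it, and 17 of these (16.3%, interval 10.5 to 24.6) were near a gained region, beside 9.14% of all 11620 CpG-rich genes. Lost regions were near 0 of the 104, beside 2.01% of all CpG-rich genes. All 17 were on the gained side (interval 81.6 to 100), beside 82.0% of all CpG-rich genes near 1 kind, which the interval includes. The share of MRPL, MRPS and NDUF genes near gained regions was thus still above that of genes of like composition, by a smaller factor. Of the 22 genes outside the class, 3 were near a gained region (13.6%), beside 216 of 8404 other genes (2.57%).

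The 20 genes and the 106 without a listed region were close in CpG content and less so in GC. The median CpG ratio was 0.765 in the 20 (range 0.565 to 1.00) and 0.769 in the 106, beside 0.786 in other genes near gained regions and 0.707 in those near lost ones. Median GC was 54.9% in the 20 and 58.2% in the 106, lower than the 61.0% of other genes near gained regions.

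The YY1 consensus was the motif in which the 20 promoters differed most from the others. It was found in 9 of 20 promoters (45%), beside 11 of the 106 MRPL, MRPS and NDUF promoters without a listed region (10.4%), 92 of 1261 other genes near gained regions (7.30%), 4 of 405 near lost regions (0.988%) and 3.04% of all protein-coding promoters. Over CpG-rich promoters the share was 4.06%. This contrast was picked from 9 motifs after the values were seen, and it was not tested. The 9 matches were only 8 places in the genome, since MRPL46 and MRPS11 hold the same one. Below they are shown in order of distance from the 5′ end, each with 11 bases on either side on the strand of the gene and the consensus in capitals.
MRPL42: aggattgaaacAAGATGGCgggttcgtggt
MRPL46: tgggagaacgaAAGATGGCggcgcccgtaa
MRPS30: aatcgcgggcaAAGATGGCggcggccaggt
MRPL20: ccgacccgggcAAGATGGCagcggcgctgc
NDUFAF8: aggacggacctAAGATGGCggcctccaggg
MRPS18B: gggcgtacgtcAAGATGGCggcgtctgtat
NDUFS4: ttgcctgcagcAAGATGGCggcggtgtcaa
MRPL22: cgggagggcgaAAGATGGCggcggcagtac

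All 8 lay on the strand of the gene and downstream of the 5′ end, and inside the gained region. They began at 8 bp in MRPL42, 10 bp in MRPL46, 13 bp in MRPS30, 15 bp in MRPL20, 22 bp in NDUFAF8, 23 bp in MRPS18B, 27 bp in NDUFS4 and 35 bp in MRPL22, counting the first base of the gene as 0. For MRPS11 the shared match began at -80 bp and read on the opposite strand. In 5 genes (MRPL22, MRPL46, MRPS18B, MRPS30 and NDUFS4) the ATG within the consensus is an annotated start codon, so the same letters are also the beginning of the coding sequence. YY1 is known to bind this motif just downstream of transcription starts, but no YY1 binding was measured here.

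The consensus was more frequent in mitoribosome promoters with a gained region, at 7 of 16 (43.8%), than in those without, at 8 of 62 (12.9%). Of the 44 NDUF promoters without a listed region, 3 held it (6.82%), and of the 4 with one, NDUFS4 and NDUFAF8 did. In a wider window of 1000 bp around the 5′ end it was again found in 45% of the 20, but in 22.6% of the 106 without a region and in 7.04% of all promoters. The contrast within the gene family was therefore smaller in the wider window.

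The other 8 motifs differed less between the 20 and the 106. An ETS match was found in 6 of 20 promoters (30%) and 28 of 106 (26.4%), beside 22.5% of other genes near gained regions, 4.94% of those near lost regions and 11.9% of all. NRF1 was matched in 3 of 20 (15%) and 13 of 106 (12.3%), beside 3.78% of all. Both motifs were thus frequent in MRPL, MRPS and NDUF promoters with and without a listed region alike. SP/KLF was matched in 2 of 20 (10%), beside 30.2% of the 106 and 27.8% of all promoters.

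The remaining motifs were rare or near the share of all promoters. TEAD was found in 4 of 20 (20%, beside 12.8% of all), NFY in 2 (10%, beside 8.17%) and the E-box in 1 (5%, beside 8.35%). CRE and ATF4-C/EBP were found in 0 of the 20, beside 2.28% and 0.688% of all promoters, which says only that these letters are not in the windows. Of the 20 promoters, 4 held none of the 9 motifs and 8 held 1.

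**Figure D4:**
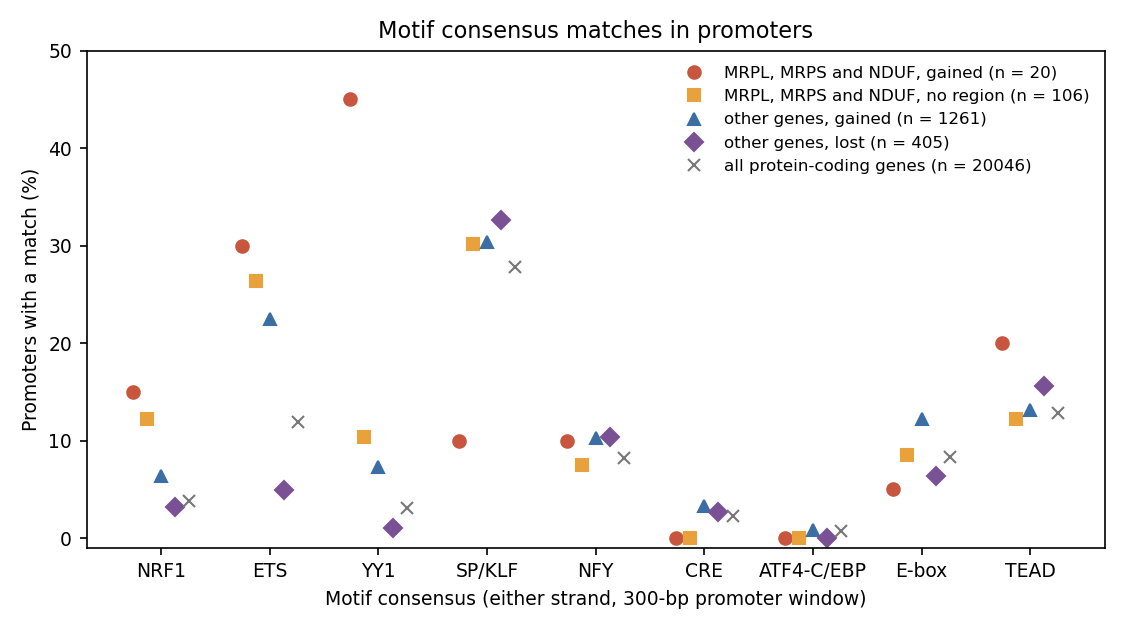
Percentage of 300-bp promoters with an exact match to each of 9 motif consensuses on either strand, for the 20 genes near gained regions, the 106 MRPL, MRPS and NDUF genes without a listed region, other genes near gained or lost regions, and all protein-coding genes. YY1 stood at 45% in the 20 genes and at 10.4% or less in the other groups, whereas ETS and NRF1 were close in the first 2 groups.

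Genes of neighbouring functions were counted the same way from lists of mitochondrial genes that are not MRPL, MRPS or NDUF. Of 150 such genes, 28 were near a gained region (18.7%, interval 13.2 to 25.7) and 1 near a lost one (0.667%), so the gained side was not particular to the mitoribosome. By role, 4 of 13 translation factors (GFM2, GUF1, MRRF and MTRFR, which recycle, move or rescue the mitoribosome) and 5 of 17 mitochondrial aminoacyl-tRNA synthetases (FARS2, IARS2, LARS2, VARS2 and YARS2) were near gained regions. The 1 gene near a lost region was CARS2, the cysteinyl-tRNA synthetase. Of 27 genes of ribosome assembly and expression of mitochondrial DNA, 5 were (DDX28, LRPPRC, MRM3, MTERF4 and TWNK), where TWNK shares the region of MRPL43. PTCD3, a small-subunit protein without the MRPS name, was the 1 of 5 such genes.

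The respiratory chain had fewer. Of 41 genes of complexes II to V, 3 were near gained regions (7.32%), namely COX7C of cytochrome c oxidase and SDHC and SDHD, the membrane anchors of complex II, a share like that of the NDUF genes and of all genes (6.39%). Of 9 complex I assembly genes with other symbols, 3 were (ACAD9, TMEM186 and TMEM70). Import was represented by 5 of 27 (HSPA9, TIMM44, TIMM8B, TIMM9 and TOMM7), chaperones and proteases by 2 of 11 (LONP1 and SPG7) and known regulators of nuclear mitochondrial genes by 3 of 11 (ESRRA, MYC and PPRC1). Cytosolic ribosomal protein genes, the counterpart outside the organelle, had 10 of 89 near a gained region (11.2%, interval 6.22 to 19.5), among them RPL29, RPL31, RPL35 and RPL36A, and 1 near a lost region, RPL26L1. The YY1 consensus was found in 4 of the 28 mitochondrial list genes near gained regions (14.3%), a lower share than in the 20 MRPL, MRPS and NDUF genes.

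The mitochondrial genome itself stood on the other side. The lost list held 10 regions of mitochondrial DNA and the gained list 0, and these covered 10156 of its 16569 bp (61.3%). They overlapped all 7 MT-ND genes, which encode the remaining core subunits of complex I, both rRNA genes of the mitoribosome and 10 of the 13 protein-coding genes. Mitochondrial DNA carries no histones, so these regions do not describe histone acetylation there, and the part of mitochondrial DNA content or read mapping was not tested. All 13 protein-coding genes count among the 405 other genes near lost regions. Without them 392 genes remained on the lost side and 76.3% of other genes near 1 kind of region were on the gained side, close to the 75.7% with them.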

How the data were processed

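H3K27ac ChIP-seq of LX-2 cells was analysed from 2 lists deposited by the authors, which hold the chromosome, start and end of regions in base pairs of hg38 and no other value (3 columns). Per the study's methods, the authors mapped reads with Chromap, called peaks in each replicate against input with MACS2 2.1.1.20160309 after removing duplicates and blacklisted regions, cut them into bins of about 2000 bp and tested the 8 H3K27ac libraries (4 per arm) with MAnorm2. Of the 16 samples, the 8 input and CoP-seq (column purified chromatin) libraries were not used here. The adjusted p threshold in the list names is 0.15, whereas the methods text names 0.05, and all listed regions were kept. Read depth is unknown, regions that did not change are not listed in them, and a change in signal cannot be sized.

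Gene 5′ ends were taken from GENCODE release 44 (62700 genes, 20046 protein-coding), a later release than the study used. A gene was near a region that reached within 2500 bp of its 5′ end, the distance the study used. The study also assigned distal regions to genes through predicted promoter interactions, which was not done here. Every MRPL, MRPS or NDUF gene near a region is named, with coordinates in full for genes with 2 regions, pairs with a common region and the 6 genes whose region centre was nearest to the 5′ end. Without a region in the window, genes are named where a listed region lay in the gene or within 10 kb, and at most 5 genes near gained regions are named per related list. Results that need certain withheld genes are counted but not reported by name here. The genes, lists and motifs were chosen with earlier results of these data known. No test was made, since the lists hold no replicate values. Python 3.11.15 with pandas 2.3.3, numpy 2.4.6 and statsmodels 0.14.6 (Wilson intervals, 95%) was used, and the assignment of regions to genes was checked on simulated regions. Alternatives varied the window, the 5′ end, common promoters, composition and the members.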

Additional observations from a re-analysis of the deposited data

How the results depend on the processing

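In all 12 alternative settings 0 of the MRPL, MRPS and NDUF genes were near a lost region. Only the window of 5000 bp and the other definitions of the 5′ end could have brought a lost region in. Settings that narrowed the window, joined regions or left out genes or regions had to return this 0, and lend it no support. Those near gained regions numbered 17 to 23, except in the next case. Leaving out every gene whose region is also near another protein-coding gene left 11 of 117 (9.40%), beside 4.16% of other genes. Of other genes near 1 kind of region, 72.2% were then on the gained side. A share counted as moved when it left the interval of its main value, and a count when it changed by more than a factor of 1.5. Of 81 alternative values, 65 stayed, some of them fixed in advance like these zeros, and 16 moved. Besides those just given, the latter concerned the comparison genes, whose share near gained regions and share on the gained side were 5.88% and 78.4% with a window of 1000 bp, 7.03% and 73.4% with 5000 bp, 4.97% and 81.2% where the region had to contain the 5′ end, 8.14% and 70.8% with the 5′ ends of all transcripts, and 9.07% and 81.8% with CpG-rich promoters only. With RefSeq gene starts they were 7.02% and 77.9%. RefSeq starts, canonical transcripts and leaving out mitochondrial DNA were added after the data were seen. No paired analysis was possible because a listed region carries no replicate values. Nor could replicates be left out in turn, or a stricter threshold be applied. A region absent from both lists may be unacetylated, unchanged or below the threshold, and these cannot be told apart here.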
